A study of Mus musculus with 24 samples.

Results

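Interleukin 4 (IL4) and interferon gamma (IFNg) were compared in wild-type (WT) bone marrow-derived macrophages, cells grown in culture from mouse bone marrow precursors. The comparison used the 3 WT libraries given IL4 and the 3 given IFNg, 6 of the 24 RNA sequencing libraries of the series, and every gene that reached a value of 1 in 3 or more of the 24 libraries, which kept 18637 of 43629 gene identifiers. All cells came from C57BL/6 mice at postnatal week 10, and the series also holds cells knocked out for CITED2 (KO), a transcriptional co-regulator, and cells given lipopolysaccharide, with 3 libraries in each of 8 groups. The 3 untreated WT libraries are shown as the starting level, and the 6 KO libraries given IL4 or IFNg as the same comparison in the other genotype. The labels give no cytokine dose, no length of exposure and no account of how Cited2 was inactivated. Nor do they say whether the libraries of a group stem from different animals or different cultures. The spread behind each p-value is that between libraries of a group, pooled per gene over all 24 libraries of the series. It may therefore be technical.

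IL4 is made by T helper 2 cells and other cells of type 2 immunity and acts on macrophages through the IL-4 receptor, whose kinases phosphorylate the transcription factor STAT6. IFNg, made by T helper 1 and natural killer cells, acts through its own receptor with JAK1 and JAK2, by way of a palindromic DNA element called GAS, and induces interferon regulatory factors. In textbooks the resulting states are called alternative and classical activation, the first associated with arginase, mannose receptor and tissue repair, the second with nitric oxide, antigen presentation and killing of intracellular microbes.

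Values are read counts that the authors had scaled with 1 factor per library, called normalised counts here. Reads ranged from 20466925 to 33852471 in the IL4 libraries and from 28455953 to 73409343 in the IFNg libraries, and 3 reads over a group of 3 libraries, taken as the limit of detection, were worth 0.660 with IL4 and 0.528 with IFNg. Values are given for replicates 1, 2 and 3 of a group in that order or as mean ± SD (n = 3). Fold changes are log2 differences, IL4 minus IFNg, of normalised count plus 1, with the standard error (SE) of the fit, so a positive number is higher with IL4. A gene is called at an adjusted p below 0.05 (limma, Benjamini-Hochberg over 18637 genes), and every gene described as higher, lower, raised or reduced passed that threshold. The cells expressed macrophage genes in both groups, among them Adgre1, which encodes the F4/80 antigen, at 72649.9 ± 1032 with IL4 and 57895 ± 871 with IFNg, and Csf1r, the receptor for the macrophage growth factor, at 61578 ± 213 with IL4 and 49623 ± 2042 with IFNg.

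The cytokines left the cells far apart. Of 18637 genes, 8172 (43.8%) were called, 4034 higher with IL4 (21.6%) and 4138 higher with IFNg (22.2%), against a median log2 difference of 0.015 over all genes tested. At 2-fold or more there were 1877 genes on the IL4 side (10.1%) and 1847 on the IFNg side (9.91%). Differences of at least 4-fold were more frequent on the IFNg side, with 868 genes (4.66%) against 607 on the IL4 side (3.26%). At 16-fold or more the counts were 200 and 62, and at 64-fold or more 63 and 8. Untreated cells lay closer to IL4, since IL4 against untreated called 3749 genes (20.1%) and IFNg against untreated 8412 (45.1%), 2 comparisons that share the untreated libraries. The even split of the calls depends on how the libraries are scaled. The programs edgeR and DESeq2, which scale the whole reads by their own factors, kept it nearly even. They called 5436 and 4780 genes higher with IL4 and 4590 and 4472 higher with IFNg. The values of an IFNg library summed to between 25510900 and 26196200 and those of an IL4 library to between 19282900 and 19368100. With totals set equal, 7294 genes were higher with IL4 and 2485 higher with IFNg, and the median over all genes moved to 0.36. With each library centred on its median gene the counts were 2337 and 5952 and the median was -0.30, so small differences are read below only with that in view.

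**Figure D1:**
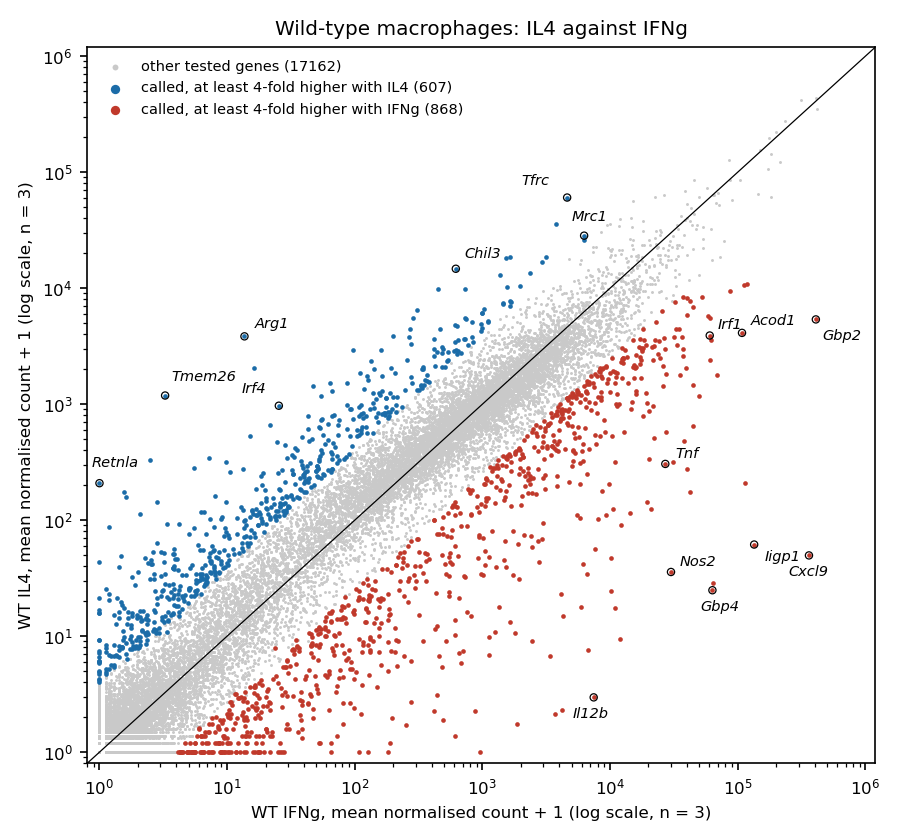
Mean normalised count plus 1 with IFNg (horizontal, log scale) and with IL4 (vertical, log scale) in WT cells, 1 point per tested gene, n = 3 libraries a group. Blue points are the 607 genes called and at least 4-fold higher with IL4, red points the 868 with IFNg, and the red points reach farther from the diagonal, out to Cxcl9.

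Among genes with a mean of at least 100 in the higher group, Tmem26, which encodes a membrane protein, had the largest difference on the IL4 side. It was at 1213, 1227 and 1118 with IL4, 0.897, 3.42 and 2.49 with IFNg and 20.5, 15.5 and 31.8 in untreated cells. The groups were far apart (log2 difference 8.59 ± 0.53, adjusted p = 8.5e-13), and IFNg had lowered it from the untreated level (log2 difference -2.88). Arg1 (chr10:24915221-24927484, minus strand, GRCm38) encodes arginase, which splits arginine into ornithine and urea. Its values were 3908, 4078 and 3539 with IL4, 17, 8.55 and 12.4 with IFNg and 3.23, 2.58 and 2.44 untreated (log2 difference 8.18 ± 0.47, adjusted p = 2.3e-13). Retnla (chr16:48842551-48844461, plus strand) encodes the secreted protein RELMa and stood at 198, 215 and 209 with IL4. No read of it was found in any IFNg or untreated library, so it was at least 393-fold higher with IL4, taking 3 reads over the IFNg group as the floor.

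Next came Gpr183, a receptor for oxidised cholesterol that guides immune cell migration, at 334, 337 and 323 with IL4 and 0.897, 2.85 and 0.711 with IFNg. Its untreated values of 164, 163 and 186 lay between. The loss with IFNg was called (-6.21 from untreated) and the difference with IL4 was not (0.95, adjusted p = 0.28). Abcd2, a peroxisomal transporter of very long chain fatty acids, was at 2047 ± 33.5 with IL4, 803 ± 50.8 untreated and 15.2 ± 2.65 with IFNg, raised by IL4 (1.35 ± 0.13 from untreated) and lowered by IFNg (-5.65). Rnase2a, a ribonuclease of the eosinophil-associated family, was at 141, 205 and 179 with IL4 and 0, 0.57 and 1.07 with IFNg. The lectin Mgl2 was at 117, 115 and 105 with IL4 and 0, 1.14 and 2.13 with IFNg, and the transcription factor Irf4, which is needed for alternative activation by chitin or helminths, at 968, 1011 and 926 with IL4 and 26, 24.5 and 22.7 with IFNg (log2 difference 5.25 ± 0.20). Untreated cells held 84.6, 76.7 and 58.6 of Irf4, above every IFNg library. The remaining genes among the 12 largest were Ksr2, a scaffold of the Raf and MEK kinases (5.71), Plekhf1, a protein of endosomes and lysosomes (5.62), Tmem37, a calcium channel subunit (5.17), and Pald1, which encodes paladin (5.02).

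On the IFNg side the 12 largest differences ran from -9.07 for Gbp2b to -12.87 for Cxcl9 on the log2 scale. Cxcl9 (chr5:92321347-92328079, minus strand), a chemokine that draws T cells bearing CXCR3, was at 339312, 374260.2 and 370959.9 with IFNg, 55.9, 32.6 and 57.5 with IL4 and 38.8, 38 and 31.8 untreated. The IL4 and untreated values overlapped, and the difference between the cytokines was -12.87 ± 0.30 (adjusted p = 4.7e-21). Cxcl10, a second ligand of CXCR3, was at 66033, 65410.1 and 62068 with IFNg and 27.1, 25.7 and 30.1 with IL4. Il12b, the p40 subunit shared by interleukins 12 and 23, was at 7316, 7071 and 7935 with IFNg and 1.15, 2.86 and 1.88 with IL4, with untreated values of 0.539, 0 and 7.33. Nos2, the inducible nitric oxide synthase, was at 31031, 28245 and 30751 with IFNg, 36.9, 37.2 and 30.1 with IL4 and 8.63, 16.8 and 39.1 untreated (log2 difference -9.72 ± 0.27, adjusted p = 9.9e-20). Arg1 and Nos2 draw on the same amino acid, and each was raised a little by the other cytokine: Nos2 with IL4 exceeded untreated by 0.91 ± 0.27 (adjusted p = 0.016), although its values overlapped, and Arg1 with IFNg did so by 1.82 ± 0.47 (adjusted p = 0.0024).

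Further groups fill the IFNg side. GTPases that attack the vacuoles of intracellular microbes were represented by Gbp4 (60836, 65387 and 63826 with IFNg, 25.9, 24 and 21.7 with IL4), Iigp1 (125993, 142759.8 and 134834 with IFNg and 65.1, 55.5 and 61.2 with IL4), Tgtp1 (-10.98 on the log2 scale) and Gbp2b (-9.07). Serpina3f, a serine protease inhibitor, was at 11657, 12030.2 and 12139.6 with IFNg and 10.4, 4.58 and 10.4 with IL4, and Upp1, which breaks uridine down, at 7138, 6440.2 and 6641 with IFNg and 6.92, 6.29 and 6.6 with IL4. Ifi205, a DNA-binding interferon-inducible protein of the p200 family, differed by -9.3 ± 0.29, and Hcar2, the receptor for niacin and hydroxybutyrate, by -9.15 ± 0.28. Several of these genes have near-identical copies (Tgtp1 with Tgtp2, Gbp2 with Gbp2b, Ifi205 with its neighbours), and how the counting split their reads is not given in the sources used here. In the plot of values by library, the IFNg libraries stand far above both other groups for Cxcl9, Gbp4, Il12b and Nos2.

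**Figure D2:**
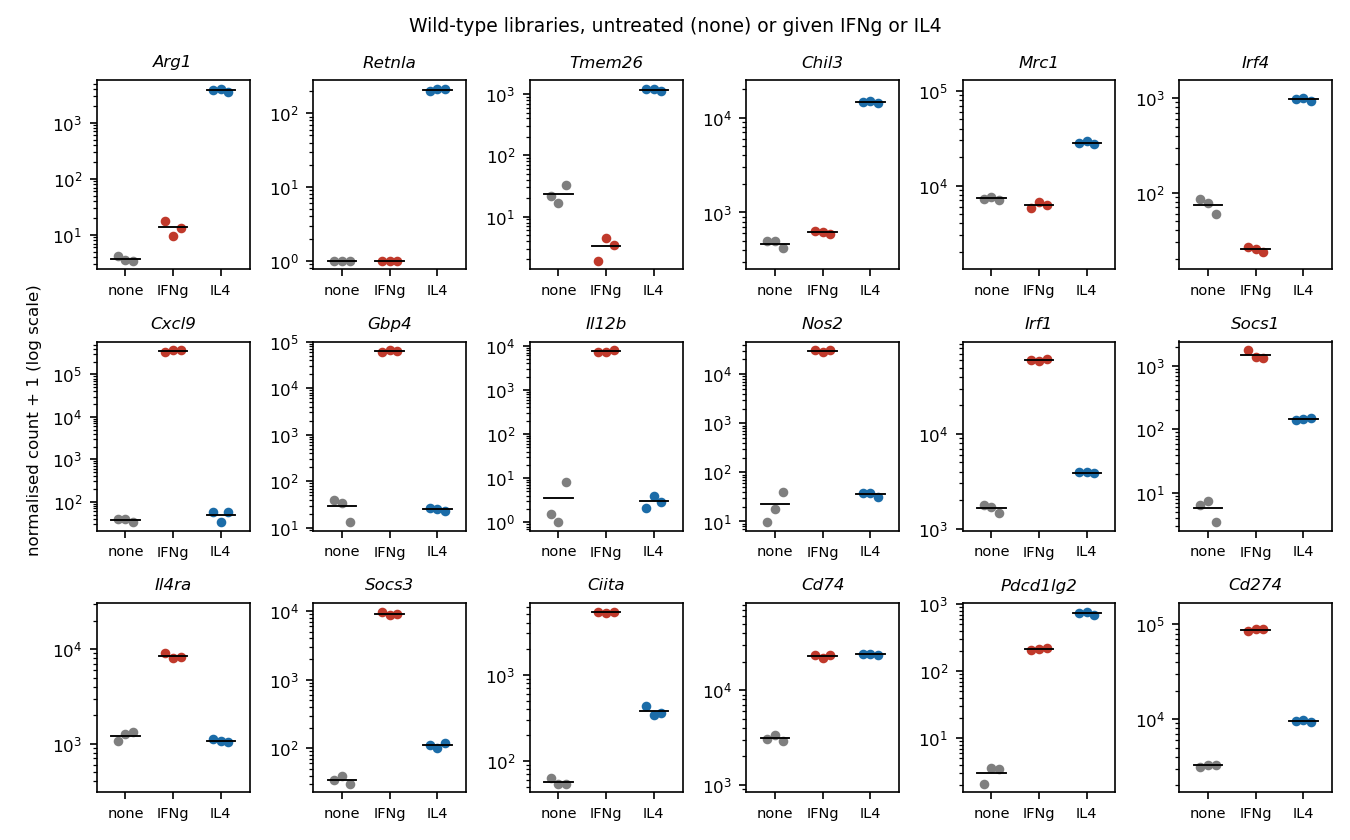
Normalised count plus 1 (log scale) of 18 genes in the WT libraries, untreated (grey), given IFNg (red) or IL4 (blue), 1 point per library and a line at the mean. Arg1, Retnla, Tmem26, Chil3, Mrc1 and Irf4 are highest with IL4, Cxcl9, Gbp4, Il12b, Nos2, Irf1, Socs1, Il4ra, Socs3, Ciita and Cd274 with IFNg, and Cd74 is alike with both.

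The sequences upstream of the leading genes are shown because the 2 cytokines signal to different DNA-binding factors. RefSeq starts on GRCm38.p6 were used, with the 250 bases before each start, and 11429 of 18637 tested genes were matched by symbol. On both strands, 3 motifs were sought: TTC and GAA with any 3 bases between them, the GAS element; TTC and GAA with any 4 bases between them, the spacing preferred by STAT6; and GAAA, any 2 bases and GAAA, the core of the interferon response element bound by interferon regulatory factors. A window could hold more than 1 of them, and the pair in Tgtp1 does not overlap. For the first genes of each direction in order of size whose window held a motif, the sequence is given 5′ to 3′ toward the gene, in lower case with the motif in capitals, and cut where an exon of the GENCODE M21 annotation begins. The first set was higher with IL4 than with IFNg.
Tmem26, chr10:68723496-68723645, plus strand: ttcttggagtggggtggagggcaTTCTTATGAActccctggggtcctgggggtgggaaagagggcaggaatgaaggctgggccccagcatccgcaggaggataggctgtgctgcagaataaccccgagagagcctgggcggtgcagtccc
Retnla, chr16:48842359-48842550, plus strand: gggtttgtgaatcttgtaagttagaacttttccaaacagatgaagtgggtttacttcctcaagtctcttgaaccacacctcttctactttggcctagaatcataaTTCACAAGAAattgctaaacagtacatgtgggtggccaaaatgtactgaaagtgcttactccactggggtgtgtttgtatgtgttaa
Plekhf1, chr7:38228017-38228244, minus strand: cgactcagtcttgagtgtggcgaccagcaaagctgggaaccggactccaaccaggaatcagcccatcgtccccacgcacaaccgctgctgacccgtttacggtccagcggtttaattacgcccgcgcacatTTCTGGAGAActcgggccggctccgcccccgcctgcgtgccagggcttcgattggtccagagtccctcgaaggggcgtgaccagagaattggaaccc
The second set was higher with IFNg than with IL4.
Cxcl10, chr5:92348890-92349139, minus strand: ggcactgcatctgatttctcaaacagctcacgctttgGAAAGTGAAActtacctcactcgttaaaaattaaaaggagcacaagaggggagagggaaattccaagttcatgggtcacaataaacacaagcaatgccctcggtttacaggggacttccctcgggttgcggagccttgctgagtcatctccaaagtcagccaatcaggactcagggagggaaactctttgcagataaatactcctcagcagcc
Tgtp1, chr11:48992259-48992496, minus strand: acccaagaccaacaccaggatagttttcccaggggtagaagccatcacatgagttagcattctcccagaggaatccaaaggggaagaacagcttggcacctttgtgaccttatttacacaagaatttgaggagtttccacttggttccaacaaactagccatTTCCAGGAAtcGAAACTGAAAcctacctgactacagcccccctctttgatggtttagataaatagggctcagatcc
Serpina3f, chr12:104214294-104214543, plus strand: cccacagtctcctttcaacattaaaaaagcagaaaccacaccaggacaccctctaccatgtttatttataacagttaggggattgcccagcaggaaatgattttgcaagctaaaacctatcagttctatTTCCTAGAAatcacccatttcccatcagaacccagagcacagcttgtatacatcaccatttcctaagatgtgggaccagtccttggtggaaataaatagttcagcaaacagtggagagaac
Counted from the RefSeq start, the STAT6 motif began at base -227 of Tmem26, -145 of Retnla and -119 of Plekhf1. The interferon response element of Cxcl10 began at -213, Tgtp1 held a GAS motif at -88 followed by an interferon response element at -77, and Serpina3f held a GAS motif at -121. Over the whole set of windows, GAS was found in 7.02% of 32851 windows, STAT6 in 5.85% and the interferon response element in 2.98%. Among the 14529 windows of tested genes the shares were 6.08%, 4.86% and 2.80%. In windows of genes at least 4-fold higher with IFNg (600 of 868 matched) they were 9.93%, 6.01% and 8.63%, and in those at least 4-fold higher with IL4 (414 of 607 matched) 5.40%, 6.89% and 1.86%. The printed windows were chosen for holding a motif. Among the leading genes Cxcl9, Il12b, Upp1, Gpr183, Rnase2a, Mgl2, Ksr2, Irf4, Tmem37 and Pald1 held none. Arg1, Abcd2, Gbp4, Iigp1, Nos2 and Hcar2 had no window and were not searched. Ifi205 held STAT6 and interferon response motifs, and Gbp2b the latter. Of the markers described below, Chil3 and Irf1 held GAS, Pdcd1lg2 STAT6 and Gbp2 an interferon response element, and Mrc1, Egr2 and Cd274 held none. A match is a run of letters and does not show binding.

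The textbook markers of alternative activation were not all called between the cytokines. Chil3, a chitinase-like lectin, was at 14798, 14882 and 14419.6 with IL4 and 642, 618 and 594 with IFNg (log2 difference 4.57 ± 0.099). Mrc1, the mannose receptor, was at 28349.6, 29489 and 27261 with IL4 and 5779.8, 6692 and 6314 with IFNg (2.18 ± 0.078), and Egr2, an early transcription factor of IL4 responses, at 4753, 4485 and 4662 with IL4 and 1693, 1705 and 1680.3 with IFNg (1.45 ± 0.069). For these 3 genes every IL4 value exceeded every IFNg value, as was so for 31.6% of all genes tested. Pdcd1lg2, the PD-1 ligand PD-L2, was also induced by IFNg: it was at 1.08, 2.58 and 2.44 untreated, 206, 216 and 219 with IFNg and 750.0, 778 and 697 with IL4. Its difference of 1.79 ± 0.63 was called (adjusted p = 0.023) and every IL4 value exceeded every IFNg value, but the call was lost under 7 alternatives, with adjusted p from 0.051 to 0.16. The other alternatives kept it, with adjusted p down to 5.3e-69. Ccl24, a chemokine for eosinophils, was called against untreated with both cytokines and not between them. It was at 54.8, 45.8 and 54.6 with IL4 and 38.5, 42.7 and 41.9 with IFNg against 2.16, 0.645 and 0 untreated. The difference between the cytokines was 0.32 ± 0.39 (adjusted p = 0.57). Every IL4 value of Ccl24 lay above every IFNg value, but the SE pools the spread of all 24 libraries.

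Of the preset IFNg markers, Gbp2 was at 388902, 421762 and 417383 with IFNg and 5363, 5367 and 5400.4 with IL4, and the IL4 values stood above untreated (517, 562 and 359, log2 difference from untreated 3.51 ± 0.10). Irf1, an interferon regulatory factor, was at 60134, 59320.3 and 61606 with IFNg and 3919, 3952 and 3847 with IL4 (-3.95 ± 0.056). Cd274, the PD-1 ligand PD-L1, was at 84661, 88544 and 89705 with IFNg and 9491, 9687 and 9353 with IL4 (-3.2 ± 0.057), against 3155, 3294 and 3266 untreated. In all 3, every IFNg value exceeded every IL4 value, as was so for 28.6% of all genes tested. Each was raised by both cytokines, less by IL4: Irf1 by 1.26 and 5.21 from untreated with IL4 and IFNg, and Cd274 by 1.55 and 4.76.

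In the signalling chain, the receptor chains for IL4 were higher with IFNg. Il4ra, the chain that binds IL4, was at 9101, 8138 and 8169.5 with IFNg, 1133, 1069.9 and 1033 with IL4 and 1063, 1259 and 1331 untreated (log2 difference -2.97 ± 0.086, adjusted p = 2.8e-19). Il13ra1, its partner in the type 2 receptor, differed by -3.23 ± 0.083 and Il2rg, the common gamma chain of the type 1 receptor, by -1.31 ± 0.053. The IFNg receptor chains were instead slightly higher with IL4, Ifngr1 by 0.37 ± 0.065 and Ifngr2 by 0.34 ± 0.037, and both calls were lost with libraries centred on their median gene (adjusted p = 0.65 and 0.64). Stat6 was at 5458, 5648 and 5441 with IL4 and 5415, 5525 and 5830.3 with IFNg and was not called (-0.019 ± 0.042, adjusted p = 0.78), and it was called in opposite directions under the other scalings, at 0.41 with equal library totals (adjusted p = 3.0e-08) and -0.33 with median centring (adjusted p = 1.1e-05). Stat2 differed by -2.43 and Stat3 by -2.41, both higher with IFNg. Among the kinases, Jak2, which serves the IFNg receptor, differed by -1.72, Jak3, which serves the common gamma chain, by -1.63, and Jak1, which serves both, by -0.81.

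The feedback inhibitors divided between the cytokines. Socs3, which blocks receptors of the gp130 family, was at 9845, 8697 and 9159 with IFNg and 110.1, 99 and 119 with IL4 (-6.39 ± 0.098), and Socs1, which blocks JAKs at the IFNg receptor, at 1776, 1369 and 1312 with IFNg and 142, 147 and 153 with IL4 (-3.31 ± 0.22). Socs1 was also raised by IL4, since untreated cells held 5.39, 6.45 and 2.44 and IL4 raised it by 4.76 ± 0.22. Socs2 went the other way, at 108, 113 and 97 with IL4, 8.97, 6.84 and 8.53 with IFNg and 4.85, 5.8 and 14.7 untreated (3.56 ± 0.31). Cish, another member of that family and a known STAT5 target, was at 257, 230.0 and 232 with IL4, 91.4, 90.6 and 88.5 with IFNg and 3.77, 1.29 and 0 untreated, so both cytokines raised it and IL4 more (1.4 ± 0.35), a call lost with a pseudocount of 0.25 (adjusted p = 0.050). Over the 16 genes of the IL-4 receptor and STAT6 list, 6 were higher with IL4 and 8 with IFNg, with a median of -0.24 that turned to 0.19 with equal library totals. Over the 13 genes of the IFNg receptor list, 2 and 11 were called and the median was -2.0.

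The interferon regulatory factors split in the same manner. Irf8, a lineage factor of monocytes and dendritic cells, was at 37819.9, 36113 and 37519 with IFNg and 2617, 2563 and 2551 with IL4, and the IL4 values lay below the untreated 3660.3, 3787 and 4010.5 (IL4 minus untreated -0.57 ± 0.054). Irf7 (-2.73), Irf5 (-1.0), Irf9 (-1.04) and Irf2 (-0.61) were higher with IFNg, and Irf4 and the cofactor Irf2bp2 (1.19) with IL4, which makes 6 and 2 of 10 tested. Irf3 was not called (0.076 ± 0.099, adjusted p = 0.6), and was called higher with IL4 with equal library totals (0.50) and higher with IFNg with median centring (-0.24, adjusted p = 0.046).

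Several lineage and metabolic transcription factors were far lower with IFNg than with IL4. Pparg, a nuclear receptor for fatty acids, was at 2287, 2462 and 2265 with IL4, 1862, 1791 and 1890.4 untreated and 109, 144 and 146 with IFNg (4.14 ± 0.11, adjusted p = 8.0e-20); it differed from untreated by -3.8 with IFNg and 0.34 with IL4. Epas1, which encodes the hypoxia factor HIF-2a, was at 1717, 1754 and 1736 with IL4 and 166, 169 and 155 with IFNg (3.4 ± 0.082), while Hif1a, which encodes HIF-1a, was at 3269.8, 3329 and 3173 with IL4 and 18291, 20004 and 19089.8 with IFNg (-2.55 ± 0.077). These 2 hypoxia factors lay on opposite sides. Cebpa (1.93), Rxra, the partner of Pparg (2.15), and Myc (2.43) were higher with IL4. Batf2, a basic leucine zipper factor, was at 11029.7, 9941 and 10716 with IFNg and 123, 124 and 127 with IL4 (-6.39 ± 0.085), and the NF-kB subunits Nfkb1 (-1.9), Nfkb2 (-1.95), Relb (-1.69) and Rela (-1.13) were all higher with IFNg. Cited2 itself, the gene targeted in the KO, was at 2308, 2623 and 2383 with IFNg, 1117, 1207 and 1120.2 with IL4 and 2298, 2179 and 2144 untreated (-1.09 ± 0.34, adjusted p = 0.01). That call was lost with equal library totals (adjusted p = 0.11). Of 43 factors tested, 17 were higher with IL4 and 20 with IFNg, with a median of -0.21 that turned to 0.22 with equal library totals.

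**Figure D3:**
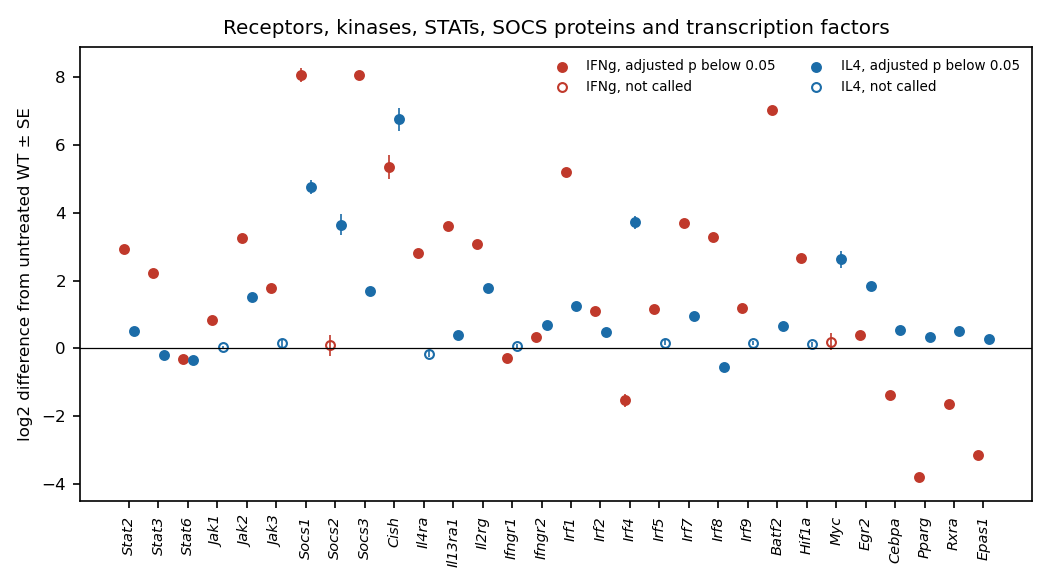
Log2 difference from untreated WT cells, with SE, of receptors, kinases, STATs, SOCS proteins and transcription factors, for IFNg (red) and IL4 (blue), n = 3 libraries a group with the same 3 untreated libraries in both. Filled points passed an adjusted p of 0.05. Socs3, Irf1 and Batf2 are raised far more by IFNg, Irf4 is raised by IL4 and lowered by IFNg, and Pparg and Epas1 are lowered by IFNg.

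Cell-autonomous defence genes were uniformly higher with IFNg. All 9 guanylate-binding protein genes tested were higher (median -6.25 on the log2 scale), from -3.78 for Gbp11 to -11.32 for Gbp4, beside 22.2% of all tested genes. All 12 immunity-related GTPase genes tested were also higher (median -5.24). Irgm1, which protects the cell's own membranes from the other GTPases, was at 60425 ± 2077 with IFNg and 2386 ± 21.4 with IL4, against 1979 ± 277 untreated. Igtp was at 22009 ± 146 with IFNg and 506 ± 12.3 with IL4, and Ifi47 at 49955 ± 857 with IFNg and 1186 ± 35 with IL4. From untreated to IL4 the median difference was 1.43 over the guanylate-binding proteins, 8 of which were called higher with IL4, and 0.28 over the immunity-related GTPases, with 7 called higher, beside 10.6% of all genes tested that were higher and 9.56% that were lower with IL4 than untreated.

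Among 45 classical activation effectors tested, 44 were higher with IFNg and 0 with IL4, with a median of -3.67. This list, like the others, was chosen with earlier results of these data known, so its count is not an independent test. The exception was Ccr7, which had a mean of 1.32 with IFNg and 0.575 with IL4, the latter under the limit of detection. Acod1, which makes itaconate in mitochondria, was at 106868, 108074 and 109162 with IFNg, 4110.3, 3983 and 4257 with IL4 and 78.7, 63.8 and 171 untreated, so IL4 also raised it, by 5.42 ± 0.20. Cd40, the receptor for the T cell ligand CD154, was at 41240.1, 39098 and 39453 with IFNg and 263, 273 and 285 with IL4 (-7.18 ± 0.13). Cd38, an enzyme that consumes NAD, was at 14242 ± 542 with IFNg and 115 ± 3.51 with IL4, and Serpina3g, a protease inhibitor, at 42123 ± 500.0 with IFNg and 174 ± 7.77 with IL4. Il27, a cytokine subunit, differed by -6.84, Calhm6, an ion channel, by -7.08, and Ly6a, the stem cell antigen Sca-1, by -7.58. The Fc receptor genes Fcgr1 (-3.19) and Fcgr4 (-5.59) were higher with IFNg, and IL4 had lowered both from untreated (log2 differences -1.12 and -0.87).

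Genes known from type I interferon responses followed IFNg as well: 39 of 40 tested were higher with IFNg and 0 with IL4 (median -2.85). Mx1, an antiviral GTPase, was at 5769, 6065 and 5652 with IFNg and 104, 101 and 103 with IL4, the latter within the range of the untreated values (97, 139 and 97.7). Ifit2, which binds viral RNA, was at 44915 ± 4178 with IFNg and 1451 ± 75.4 with IL4, Samhd1, which depletes nucleotides, at 112942 ± 3308 with IFNg and 10704 ± 304 with IL4, and Zbp1, a sensor of Z-form nucleic acid, at 18227 ± 241 with IFNg and 792 ± 14.3 with IL4. Bst2, or tetherin, was not called (-0.19 ± 0.079, adjusted p = 0.055), passed the threshold under 7 alternatives and turned to 0.23 with equal library totals.

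Antigen presentation by MHC class I was higher with IFNg in 20 of 24 genes tested, with a median of -0.97. Nlrc5, the transactivator of class I genes, was at 14973, 14446 and 14966 with IFNg and 1083, 1004 and 1019 with IL4 (-3.84 ± 0.056), and Tap1, a subunit of the peptide transporter, at 16958, 15422 and 15428 with IFNg and 1216, 1282 and 1198 with IL4 (-3.69 ± 0.062). The classical heavy chains H2-K1 (-0.65) and H2-D1 (-0.66) and their partner B2m (-0.69) were higher with IFNg too. Among the other heavy chains, H2-Q6 (-2.26), H2-Q4 (-1.8), H2-T24 (-1.42) and H2-Q7 (-1.13) differed in the same direction, and how the counting split reads among such similar genes is not given in the sources used here. The chaperones Calr (1.19) and Pdia3 (0.68) were the 2 members higher with IL4.

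MHC class II behaved differently from its own transactivator. Ciita was at 5361, 5142 and 5363 with IFNg, 433, 339.8 and 356 with IL4 and 63.1, 53.5 and 53.7 untreated, a difference of -3.82 ± 0.095 (adjusted p = 1.3e-20). Cd74, the invariant chain, was at 23631, 21967 and 23599 with IFNg and 24107, 24129 and 23515 with IL4, with overlapping values and no call (0.053 ± 0.083, adjusted p = 0.68). H2-Eb1, a class II beta chain, was at 2723, 2372 and 2461 with IFNg and 2546, 2819 and 2685 with IL4 (0.093 ± 0.089, adjusted p = 0.45). H2-Aa was at 8003 ± 259.6 with IFNg and 6904 ± 31.9 with IL4 (-0.21 ± 0.085) and H2-Ab1 at 6257 ± 462 with IFNg and 4243 ± 81.2 with IL4 (-0.56 ± 0.10), small differences toward IFNg. The call of H2-Aa was lost under 10 alternatives, among them the removal of any of the 6 libraries, with adjusted p from 0.051 to 0.13. With equal library totals H2-Aa was at 0.21, the call of H2-Ab1 was lost (adjusted p = 0.31), and Cd74 (0.48) and H2-Eb1 (0.52) were called higher with IL4, while median centring put Cd74 at -0.26 and H2-Eb1 at -0.22. All 4 genes were above untreated with both cytokines, Cd74 by 2.95 with IL4 and 2.9 with IFNg, and Ciita by 2.7 and 6.52. The peptide editors H2-DMa (-1.91) and H2-DMb1 (-1.65) were higher with IFNg, and Ifi30, a lysosomal thiol reductase, with IL4 (1.02). The list counted 4 higher with IL4 and 9 with IFNg of 17 tested. The counts became 7 and 7 with equal library totals, and 1 and 10 with median-centred libraries.

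Inflammatory cytokines and chemokines were mostly higher with IFNg (24 of 39 tested, 4 with IL4, median -1.38). Tnf was at 26839, 26402 and 28016 with IFNg, 319.9, 302 and 291 with IL4 and 176, 173 and 227 untreated (-6.47 ± 0.089). Ptgs2, the inducible cyclooxygenase, was at 19815, 21547 and 21371 with IFNg and 138, 115 and 119 with IL4 (-7.39 ± 0.26), and Tnfsf10, the death ligand TRAIL, at 6114 ± 249 with IFNg and 40.6 ± 10.4 with IL4. Il1b was at 59.8 ± 5.14 with IFNg and 29.9 ± 8.02 with IL4; its call was lost with equal library totals and without IL4 replicate 2 or 3 (adjusted p from 0.052 to 0.13). Il6 was at 42.4 ± 6.46 with IFNg and 1.65 ± 1.05 with IL4. The members higher with IL4 were Ccl9 (35644 with IL4 and 9908 with IFNg), Ccl6 (10469 with IL4 and 4062 with IFNg), Osm (0.74) and Il10 (9.08 ± 0.944 with IL4 and 1.77 ± 1.25 with IFNg).

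Receptors for cytokines and chemokines split evenly, with 12 higher with IL4 and 12 with IFNg of 33 tested. Their median of -0.10 was above 0 under 5 alternatives, among them equal library totals (0.32). Cxcr4, the receptor for CXCL12, was at 4846, 5084 and 4703 with IL4 and 1015, 959 and 947 with IFNg and untreated at 9528, 9369.8 and 9455, so both cytokines had lowered it and IFNg more. Cx3cr1, the fractalkine receptor of resident macrophages, was at 26.5, 29.8 and 53.7 with IL4, 5.38, 0.57 and 2.49 with IFNg and a mean of 28.2 ± 8.32 untreated (3.46 ± 0.67). Il18rap, a chain of the interleukin 18 receptor, was at 1354, 1333 and 1383 with IFNg and 13.3, 12.6 and 24.5 with IL4 (-6.32 ± 0.30). Tnfrsf1a and Tnfrsf1b, the receptors for TNF, lay on opposite sides (-2.55 and 2.04). Il10ra (-2.87) and Ccrl2 (-4.25), a receptor that holds chemerin, were higher with IFNg.

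Of 32 pattern recognition receptors and adaptors tested, 20 were higher with IFNg and 6 with IL4 (median -1.22). Toll-like receptors of the endosome did not move together. Tlr9, for CpG DNA, was higher with IFNg (-3.17 ± 0.17), and Tlr12, for profilin of parasites, was at 221, 172 and 186 with IFNg and 2.88, 0 and 0 with IL4. Tlr8 was at 13226, 13189 and 12782 with IL4 and 1308, 1478 and 1363 with IFNg (3.24 ± 0.082), and Tlr13, for bacterial ribosomal RNA, at 6501, 6553 and 6673 with IL4 and 999.6, 1066 and 995 with IFNg (2.69 ± 0.08). Untreated values were 6055, 6524 and 5894 for Tlr8 and 9121, 9704 and 9452 for Tlr13, so IFNg had lowered both. Myd88, the shared adaptor, was higher with IFNg (-2.92), as were the cytosolic sensors Nod1 (-4.3), Nlrp3 (-4.08) and Tmem173, or STING (-3.48).

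Costimulatory and checkpoint ligands counted 14 higher with IFNg and 5 with IL4 of 20 (median -1.79). Icam1, an adhesion ligand, was at 69257, 67505 and 69809.6 with IFNg and 1728, 1796 and 1878 with IL4 (-5.26 ± 0.058), and Cd86 at 5671, 6023 and 5818 with IFNg and 205, 229 and 172 with IL4 (-4.86 ± 0.093). Cell death genes counted 24 and 2 of 30 (median -1.34), with Mlkl, the executioner of necroptosis, at 5127 ± 249 with IFNg and 396 ± 20.5 with IL4, and the inhibitor Cflar at 26665 ± 1334 with IFNg and 3689.6 ± 95.3 with IL4. Gsdme, a pore-forming gasdermin (1.31), and Bcl2l11, a killer protein of the BCL2 family (0.74), were the members higher with IL4.

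The IL-4 alternative activation list held 46 tested genes, of which 27 were higher with IL4, 10 higher with IFNg and 9 not called, with a median of 1.54. Slc7a2, a transporter that brings arginine into the cell, was at 17896, 17689 and 17718 with IL4, 4603, 4816 and 4871 with IFNg and 341, 402 and 322 untreated, so both cytokines raised it. Igf1, a growth factor, was at 35784, 34794 and 35623 with IL4 and 3701, 3885 and 3743 with IFNg (3.23 ± 0.065), Flt1, a receptor for vascular growth factor, at 4617, 4355 and 4444 with IL4 and 243, 296 and 265 with IFNg (4.06 ± 0.14), and Itgax, the integrin CD11c, at 18543, 18688 and 18266 with IL4 and 1612, 1598 and 1706 with IFNg (3.5 ± 0.064). Ptgs1, the constitutive cyclooxygenase, was at 2972, 2897 and 2896 with IL4 and 92.3, 97.4 and 97 with IFNg (4.92 ± 0.11), opposite to Ptgs2. Fn1, or fibronectin, was at 2137 ± 31.2 with IL4 and 424 ± 13.2 with IFNg, and Matk, a tyrosine kinase, at 1528 ± 93.4 with IL4 and 63.5 ± 1.57 with IFNg.

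The members of that list that were higher with IFNg included Il1rn, the antagonist of interleukin 1, at 35268, 39647 and 39362 with IFNg, 459, 495 and 483 with IL4 and 980.2, 1022 and 911 untreated (-6.31 ± 0.067). IL4 had lowered it from untreated (log2 difference -1.02 ± 0.067). Tgm2, a transglutaminase, was at 22089, 19963 and 21572 with IFNg, 3099, 3182 and 3017 with IL4 and 1084, 1154 and 1219 untreated (-2.77 ± 0.082), so both cytokines raised it and IFNg more. Ch25h, which makes the precursor of the main ligand of Gpr183, was at 456, 413 and 399 with IFNg and 12.7, 12 and 6.6 with IL4 (-5.26 ± 0.43), the reverse of its receptor. Cd83 (-3.31), Ccl8 (-2.78) and F13a1 (-2.46) were likewise higher with IFNg.

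Lectins, scavenger receptors and receptors for dying cells were higher with IL4 in 19 and with IFNg in 11 of 35 tested (median 0.59). Clec4a3, an inhibitory C-type lectin, was at 3869.9, 3959.7 and 3890.1 with IL4 and 178, 233 and 187 with IFNg (4.3 ± 0.20). Lrp1, a large scavenger receptor (1.57), and Cd36, a receptor for oxidised lipids (1.53), were higher with IL4. The receptor kinases for apoptotic cells Axl (-2.2) and Mertk (-1.21) were higher with IFNg, with Gas6, their ligand, on the IL4 side (0.69). Genes of macrophage fusion counted 16 higher with IL4 and 4 with IFNg of 22 (median 0.54). Those higher with IFNg were Ccl2 (-2.51), Mmp14 (-1.54), Itgb1 (-1.05) and Cd47 (-0.67). With median-centred libraries the counts were 10 and 4 (median 0.23). Dcstamp, required for fusion, was at 96.3, 109.8 and 112 with IL4 and 20.6, 21.1 and 26.3 with IFNg (a call lost with a pseudocount of 0.25, adjusted p = 0.065), Atp6v0d2, a proton pump subunit, at 34377, 34960.2 and 35121 with IL4 and 8666, 9940.1 and 9837 with IFNg, and Mmp9, a gelatinase, at 294 ± 10.3 with IL4 and 49.8 ± 1.6 with IFNg.

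Metabolic genes differed in a pattern that depended on the enzyme. Of 36 glycolysis and HIF-1 genes, 25 were higher with IFNg and 5 with IL4 (median -0.63). With equal library totals 19 and 8 were called, and the median was -0.20. Pfkp, a phosphofructokinase, was at 24241, 23917 and 24800.3 with IFNg and 3451, 3539 and 3509.5 with IL4 (-2.8 ± 0.039), Hk2, a hexokinase, at 12697, 12266 and 12812 with IFNg and 2468, 2507 and 2536 with IL4 (-2.33 ± 0.064), and Slc2a6, of the glucose transporter family, at 11373 ± 1555 with IFNg and 1837 ± 119 with IL4. Slc2a3, another glucose transporter, lay on the IL4 side (2.38 ± 0.73), a call lost with a pseudocount of 0.25 (adjusted p = 0.058). Nuclear-encoded oxidative phosphorylation genes counted 26 higher with IL4 and 1 with IFNg of 44, but their median of 0.28 became -0.029 with median-centred libraries, where 10 and 9 were called. With equal library totals 41 and 0 were called, with edgeR 30 and 2 and with DESeq2 27 and 2. Among the scalings, median centring alone evened out that list.

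In the tricarboxylic acid cycle list the widest differences at either end were those of Idh1 and Acod1. Idh1, the cytosolic isocitrate dehydrogenase, was at 9923, 9907 and 9541 with IL4, 722, 731 and 720.4 with IFNg and 11308, 11646 and 10273 untreated (3.75 ± 0.086, adjusted p = 3.2e-21), a loss with IFNg. Acod1 differed by -4.71. The list counted 18 higher with IL4 and 7 with IFNg of 33, and its median of 0.30 became -0.0064 with median-centred libraries. Fatty acid oxidation genes counted 14 and 9 of 32, and their median of 0.17 became -0.14 with median-centred libraries. The called share of that list was 71.88%, beside 43.8% of all genes tested and 53.7% of protein-coding genes. Hadh, a dehydrogenase of beta-oxidation, was higher with IL4 (2.18 ± 0.10), and Acsl1, which activates long-chain fatty acids, was at 20895, 21701 and 22003 with IFNg and 2453, 2339 and 2369 with IL4 (-3.17 ± 0.046).

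Lipid handling genes under PPARg and LXR were higher with IL4 in 20 and with IFNg in 4 of 36 (median 0.69). The median difference from untreated was -0.11 with IL4 and -0.81 with IFNg, the 2 sharing the untreated libraries. Angptl4, an inhibitor of lipoprotein lipase and a target of PPARs, was at 87.6, 89.8 and 98.9 with IL4 and 4.48, 2.28 and 2.84 with IFNg (4.5 ± 0.36). Abca1, a cholesterol exporter, was at 7121, 6951 and 7104 with IL4 and 1583, 1678 and 1654 with IFNg (2.11 ± 0.075), and Lipa, the lysosomal acid lipase, at 61286 ± 337 with IL4 and 22642 ± 912 with IFNg. In cholesterol synthesis Dhcr7 stood out at 1367, 1367 and 1311 with IL4 and 117, 108 and 123 with IFNg (3.53 ± 0.22), in a list with 10 higher with IL4 and 4 with IFNg of 24 whose median of 0.14 became -0.17 with median-centred libraries. Eicosanoid enzymes counted 9 and 6 of 19 (median 0.51), Ptgs1 and Ptgs2 at the ends.

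In arginine, nitric oxide and polyamine metabolism, 12 genes were higher with IL4 and 7 with IFNg of 25, and the median of 0.18 became -0.13 with median-centred libraries. Beside Arg1 and Nos2, the arginine transporter Slc7a1 was higher with IFNg (-3.02 ± 0.081) and its relative Slc7a2 with IL4 (1.9 ± 0.088). Gch1, which starts the synthesis of the cofactor of nitric oxide synthase, was higher with IFNg (-1.89). Odc1, which turns ornithine into putrescine, was also higher with IFNg (-1.65), and Sat1, which acetylates polyamines, with IL4 (1.5).

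Among genes of iron and heme, Tfrc, the transferrin receptor, was at 60869, 62292 and 58133 with IL4, 15029, 15132 and 14213 untreated and 4428, 4931 and 4468 with IFNg (3.71 ± 0.087, adjusted p = 4.4e-21) and was raised by IL4 and lowered by IFNg. Steap3, the endosomal ferrireductase that acts beside it, was at 1591, 1617 and 1653 with IL4 and 134, 121 and 126 with IFNg (3.67 ± 0.089). Slc11a2, the iron importer DMT1, was higher with IFNg (-0.75 ± 0.043). Flvcr1, a heme exporter, was higher with IL4 (2.23), and Lcn2, which binds bacterial siderophores, with IFNg (-2.53). Of 20 iron and heme genes, 11 were higher with IL4 and 4 with IFNg (median 0.46).

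Cell cycle genes were higher with IL4 in 23 of 42 and with IFNg in 6 (median 0.59), beside 21.6% and 22.2% of all genes tested. The replication genes Mcm6, at 1290.2, 1314 and 1188 with IL4 and 357, 391 and 417 with IFNg, and E2f1 (1.51 ± 0.23) were on the IL4 side, and neither differed between IL4 and untreated by the test (adjusted p = 0.085 and 0.88). Ccnd2, a G1 cyclin, went the opposite way at 4158, 4171 and 4151 with IFNg, 23.6, 21.2 and 21.7 with IL4 and 25.3, 27.1 and 24.4 untreated (-7.49 ± 0.18), and so did the cell cycle inhibitor Cdkn1a at 27908, 26675 and 27833 with IFNg and 1792, 1849 and 1819 with IL4 (-3.91 ± 0.049). Mki67, a marker of cycling cells, was at 1164 ± 94.9 with IFNg and 211 ± 18.5 with IL4, against 155 ± 5.75 untreated. Other genes of cycling cells did not share that direction, with Top2a higher with IL4 (0.49 ± 0.13, lost with median centring at an adjusted p of 0.30) and Ccnb1 not called (0.76 ± 0.55, adjusted p = 0.3).

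In the unfolded protein response, 15 genes were higher with IL4 and 9 with IFNg of 27, and the median of 0.28 became -0.036 with median-centred libraries. Of the chaperones of the endoplasmic reticulum, Pdia4 was at 6084, 6214 and 5941 with IL4 and 917, 1009.7 and 1042 with IFNg (2.62 ± 0.078), Hyou1 was higher with IL4 (1.05), and Canx was not called (0.074, adjusted p = 0.43), though it was called higher with IL4 with equal library totals (0.50) and higher with IFNg with median centring (-0.24, adjusted p = 0.021). Asns, the asparagine synthetase, was at 5215, 5323 and 5355 with IFNg and 511, 539.5 and 479 with IL4 (-3.38 ± 0.081). Trib3, a pseudokinase of the stress response, and the transcription factor Atf4 were also higher with IFNg (-2.84 and -1.4).

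Lysosomal genes counted 19 higher with IL4 and 7 with IFNg of 37, and their median of 0.17 became -0.14 with median-centred libraries. Ctsc, or cathepsin C, which activates granule proteases, was the widest at 58261, 63068 and 59685 with IFNg and 5565, 5483 and 5645 with IL4 (-3.44 ± 0.064), against 3125, 3244 and 2841 untreated. Matrix and remodelling genes counted 9 and 14 of 30, with a median of -0.35 that became 0.075 with equal library totals. Plau, the urokinase, was higher with IFNg (-3.25) and Adam8, a metalloprotease, with IL4 (2.53). Complement genes counted 5 and 11 of 20 (median -0.43), and 8 and 8 with equal library totals (median -0.0027). C3, the central component, was at 77596, 76122 and 80287 with IFNg, 25702, 25371 and 25159 with IL4 and 577, 683 and 574 untreated, raised by both. The receptors C3ar1 (1.72) and C5ar2 (3.76) were higher with IL4, where IFNg had lowered them from untreated (log2 differences of -1.91 and -4.88).

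**Figure D4:**
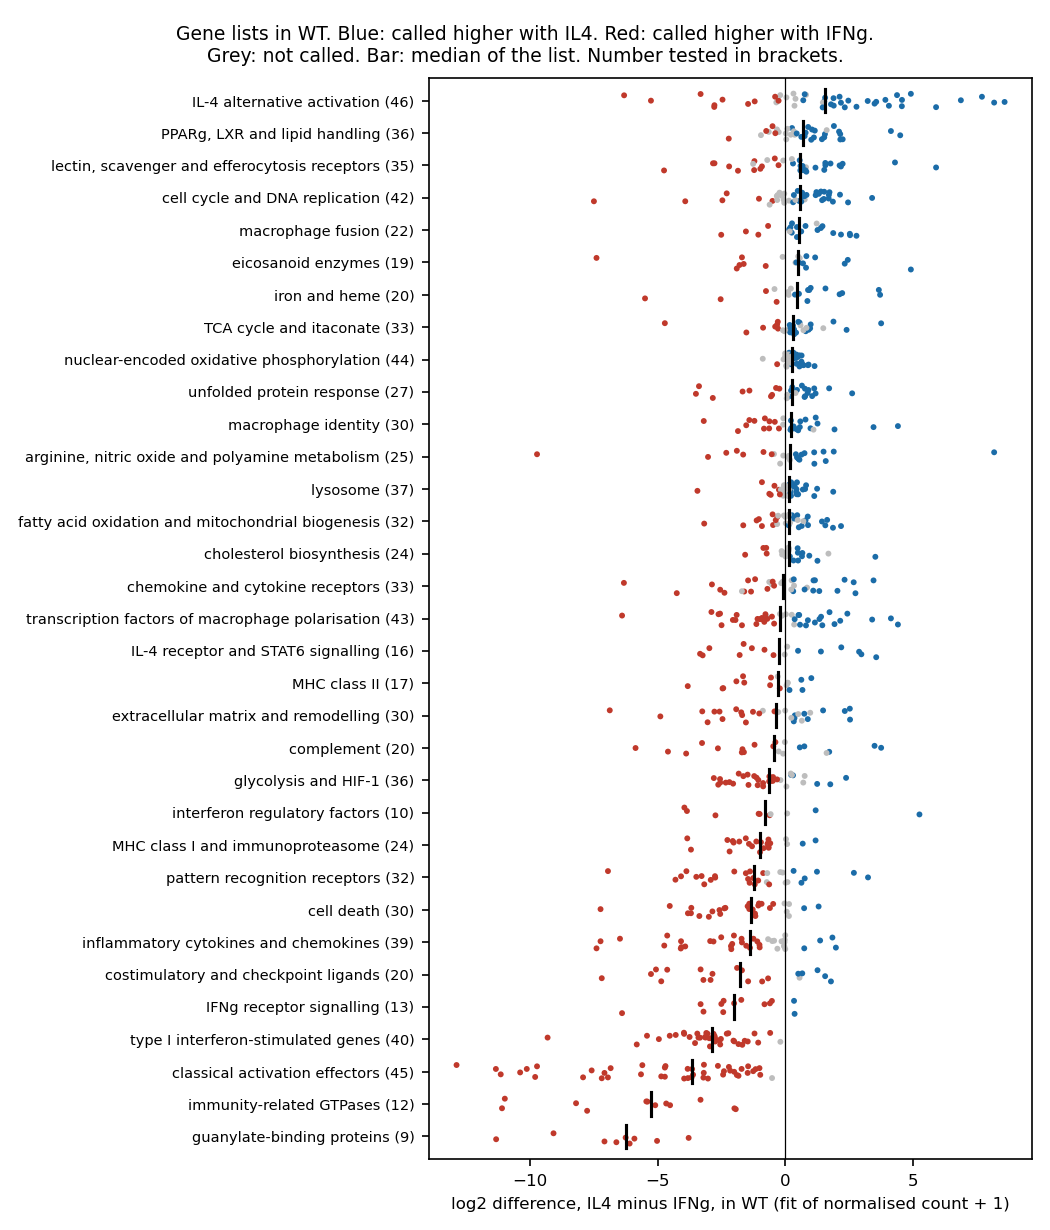
Log2 difference, IL4 minus IFNg, in WT cells for the tested genes of 33 gene lists, 1 point per gene, blue where called higher with IL4, red where called higher with IFNg, grey where not called, and a bar at the list's median. Lists are ordered by median, from -6.25 for guanylate-binding proteins to 1.54 for IL-4 alternative activation.

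By difference of mean value, which favours abundant genes, the first 5 with IFNg were Gbp2, Cxcl9, Iigp1, Actb, which encodes beta actin, and Gbp2b. Actb was at 188116, 180371 and 176464 with IFNg and 61346, 62760.2 and 60627 with IL4 (-1.56 ± 0.075), so a gene often used as a reference differed between the groups. Those with IL4 were Psap, Tfrc, Lgals3, Anxa1 and Ctsd. Anxa1, an annexin that restrains inflammation, was at 55583, 57235 and 55703 with IL4 and 15000.3, 15721 and 15020.5 with IFNg (1.88 ± 0.071), and Lgals3, or galectin 3, at 127544 ± 3563 with IL4 and 84693 ± 1931 with IFNg (0.59 ± 0.063). Psap differed by 0.43 ± 0.067, a call lost with median-centred libraries (adjusted p = 0.36), and Ctsd by 0.23 ± 0.065, which turned to -0.080 under that scaling.

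Of 14178 protein-coding genes 53.7% were called, 3758 higher with IL4 and 3853 with IFNg, and of 509 long intergenic RNA genes 20.6%, 65 and 40. The list counts above stand beside that protein-coding share. It compares with 58.33% of the cholesterol synthesis, 61.36% of the oxidative phosphorylation and 70.27% of the lysosome list. Among non-coding genes Gm26667, annotated at chr16:84703167-84715245 as the host transcript of the microRNA gene Mir155, was at 2398, 2486 and 2468 with IFNg, 8.65, 6.87 and 8.48 with IL4 and 1.08, 1.29 and 4.88 untreated (-8.1 ± 0.27). Ptgs2os2, a transcript named for Ptgs2, was at 473, 504 and 471 with IFNg and 5.19, 6.29 and 1.88 with IL4, and A530040E14Rik at 207 ± 4.28 with IFNg and 6.34 ± 1.56 with IL4. On the IL4 side the first was Gm15513, which lies within Zfyve28 on the same strand, at 151, 142 and 136 with IL4, 1.79, 1.14 and 2.49 with IFNg and 520.3, 461 and 418 untreated, followed by RP24-443M8.2 (4.22 ± 0.61) and 5830432E09Rik (3.36 ± 0.22), antisense to Ptpre. The counting's use of strand is not given in the sources used here, so reads of an overlapping or antisense partner cannot be told apart.

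Markers of other cell types were low, and fewer cells of a type and less RNA per cell cannot be told apart in these bulk samples. T and NK cell markers summed to 649.6 to 684 with IFNg and 59.4 to 69.2 with IL4, but 1 of 16 was called, the kinase gene Lck (612, 598 and 631 with IFNg, 9.22, 9.15 and 9.42 with IL4), while the receptor gene Ncr1 had no read with IL4. Dendritic cell markers summed to 6803 to 7090.4 with IFNg and 4521 to 4818 with IL4, with 6 of 10 higher with IFNg. Xcr1, a chemokine receptor of cross-presenting dendritic cells, was at 141, 115 and 123 with IFNg and without a read with IL4, and Clec9a at 602, 717 and 634 with IFNg and 8.07, 2.86 and 7.54 with IL4, while Flt3, a further marker of those cells, had no read with IFNg. Neutrophil markers summed to 5778 to 6130.3 with IFNg and 5233 to 5564 with IL4, most of it Csf3r, with 5 of 15 higher with IFNg and 1 with IL4. B cell markers summed to 1538 to 1602 with IFNg and 5999 to 6063 with IL4 (2 called higher with IL4 and 1 with IFNg of 10), most of it Blnk (2.23 ± 0.043), and Cd79a was at 1.08 ± 0.624 with IFNg and 0 ± 0 with IL4. Eosinophil, basophil and mast cell markers summed to 481 to 538 and 612 to 658, fibroblast markers to 441 to 486 and 662 to 674, and erythroid and megakaryocyte markers to 214 to 291 and 1021 to 1074, most of the last being Pf4, with no read of the haemoglobin genes Hba-a1 and Hbb-bs in either group. In these lists 2 and 4 of 11, 4 and 1 of 12, and 1 and 0 of 6 tested genes were called higher with IL4 and with IFNg. The called share was 60% of dendritic cell, 40% of neutrophil, 30% of B cell and 54.55% of eosinophil, basophil and mast cell markers, beside 43.8% of all genes tested. In the sex-linked list 1 gene could be tested and was not called. The share of reads from mitochondrial genes was 1.95% to 2.27% with IFNg and 2.29% to 2.33% with IL4. The part of any of these in the results was not tested. Of 30 macrophage identity genes, 16 were higher with IL4 and 11 with IFNg, with a median of 0.23 that became -0.083 with median-centred libraries. Of 7 mitochondrially encoded genes tested, 5 were higher with IFNg (median -0.33, which became 0.09 with equal library totals).

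The same comparison in KO cells uses other libraries, although the fit takes 1 estimate of the spread per gene from all 24. In KO the targeted gene Cited2 was at 12.4, 14.3 and 8.52 with IL4 and 11.9, 10.2 and 18.7 with IFNg, far below every WT value. The KO comparison called 7850 genes (42.1%), 3973 higher with IL4 (21.3%) and 3877 with IFNg (20.8%). Of the 8172 genes called in WT, 6577 (80.5%) were called in KO in the same direction and 30 in opposite directions, and of 1475 genes called and at least 4-fold apart in WT, 1327 (89.97%) were called in KO in the same direction. All 9 guanylate-binding proteins and 12 immunity-related GTPases were higher with IFNg in WT, and 9 and 11 of them also in KO. The remaining GTPase gene, Gvin1, had no read in the KO libraries given IL4 or IFNg. The difference between the genotypes was tested as KO minus WT of the log2 difference, and 974 genes were called (5.23%), 626 above 0 (3.36%) and 348 below 0 (1.87%). Where both genotypes were called in the same direction, 635 of those genes had a smaller difference in KO and 105 a larger one.

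Many IFNg-induced genes were among those with a smaller difference in KO. Gbp4 was at 65512, 69458 and 67874 with IFNg and 337, 226 and 256 with IL4 in KO (log2 difference -7.97 ± 0.26), against -11.32 in WT, a difference between genotypes of 3.35 ± 0.36 (adjusted p = 6.6e-07). Cxcl9 was at 205353, 206580.0 and 215884 with IFNg and 196, 127 and 111 with IL4 in KO (2.34 ± 0.43 between genotypes). In both genes every KO value with IL4 lay above every WT value with IL4, and for Cxcl9 the KO values with IFNg also lay below those of WT. Iigp1 (2.81 ± 0.33), Ly6a (2.9 ± 0.28), the channel protein gene Clic5 (3.03 ± 0.11) and the olfactory receptor gene Olfr56 (2.9 ± 0.43) were called in the same direction. The annotated span of Olfr56 holds Tgtp1 and Tgtp2 on the other strand, so its reads cannot be told apart from theirs. Clic5 was at 1194, 1016 and 1126 with IL4 in KO and 97.4, 97.3 and 106 in WT. Of 40 type I interferon-stimulated genes, 39 were called above 0, beside 3.36% of all genes tested, as were 9 of 9 guanylate-binding proteins, 10 of 11 immunity-related GTPases other than Gvin1, 28 of 45 classical effectors and 16 of 24 MHC class I genes. Gvin1 had no read in the KO IL4 and IFNg libraries, so its call between genotypes is the WT difference alone (326, 345 and 359 with IFNg and 26.5, 32 and 44.3 with IL4 in WT).

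On the IL4 side, 14 of 46 IL-4 alternative activation genes were called below 0, beside 1.87% of all genes tested, and 1 above 0. Retnla was at 20.1, 26 and 16 with IL4 and 0, 0 and 0 with IFNg in KO, against 198, 215 and 209 with IL4 in WT (-3.29 ± 0.49 between genotypes, adjusted p = 5.9e-05). Rnase2a (-2.5 ± 0.58) and Mrc1 (-0.84 ± 0.11) were also called, Mrc1 at 22899, 18967 and 20126 with IL4 in KO. Arg1 was at 468, 420.3 and 441 with IL4 and 1.69, 3.84 and 8.03 with IFNg in KO. With either cytokine every KO value of Arg1 lay below every WT value given above. Its difference between genotypes in IL4 minus IFNg, -1.68 ± 0.67, was not called (adjusted p = 0.2). Myc was at 75.1, 67.7 and 72.4 with IL4 in KO against 216, 218 and 218 in WT (-2.04 ± 0.35). Prcp, a lysosomal carboxypeptidase, changed side, at 8007, 8827 and 8607 with IFNg and 4792, 4180.4 and 4214 with IL4 in KO and 1545, 1596 and 1572 with IFNg and 3239.8, 3489 and 3205 with IL4 in WT (-2.02 ± 0.077). Arnt2, a partner of hypoxia and aryl hydrocarbon factors, was at 151, 154 and 155 with IFNg in KO and 28.7, 30.8 and 34.5 in WT (-2.11 ± 0.48), and its WT difference of -1.04 was lost under 3 alternatives (equal library totals, without IFNg replicate 3 and without IL4 replicate 1), with adjusted p from 0.052 to 0.11. Shisa9, a membrane protein known from synapses, differed by -1.85 ± 0.41.

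**Figure D5:**
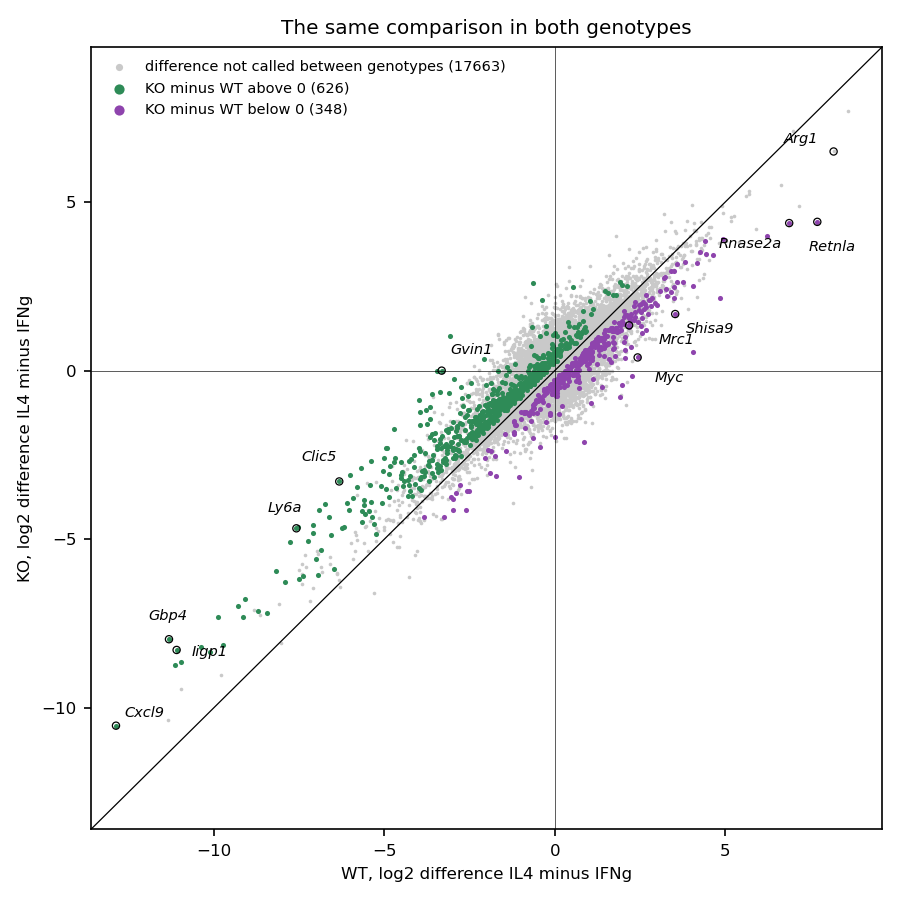
Log2 difference, IL4 minus IFNg, in WT (horizontal) and KO cells (vertical), 1 point per tested gene, with the line of equality. Green and purple points are the 626 and 348 genes whose difference between genotypes was called above and below 0, and the green points at the lower left, such as Gbp4, Iigp1 and Cxcl9, lie nearer to 0 in KO than in WT.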

How the data were processed

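Transcripts of mouse bone marrow-derived macrophages had been sequenced in 24 libraries. The authors deposited 1 table of normalised signal per gene, and every value above 0 was a whole number of reads divided by 1 factor per library (100% of values whole within 0.05), so the whole reads and depths were recovered. Per the submitters' processing notes TopHat2 2.2.1, Cufflinks 2.2.1, Cuffdiff and mm10 or GRCm38 were used; the counter and annotation are not given in the sources used here. Of 43629 identifiers, 42548 matched GENCODE M21, which gave positions and biotypes.

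Genes that reached a value of 1 in 3 or more libraries were tested with limma 3.58.1 in R 4.3.3 on log2(value + 1), which understates changes of low genes, with 1 mean for each of 8 groups, a variance trend and Benjamini-Hochberg adjustment over 18637 genes. The spread of each gene was pooled over all 8 groups. They include replicate 1 of the KO cells given lipopolysaccharide, which held 1478507 reads, with 1 read worth 23.6. On simulated data limma recovered 83% of 100 genes changed 2-fold and 95% of 100 changed 4-fold between IL4 and IFNg. The simulation gave all genes the same dispersion and changed no other gene in any group. The lowest genes were left out of the changed ones, so these shares need not hold for the real libraries. Alternatives were edgeR 4.0.16 and DESeq2 1.42.0 on whole reads, pseudocounts of 0.25 and 4, other filters and scalings, fewer libraries, library weights, a replicate block and leaving out each library. Replicate numbers gave no clear pairing of the libraries (correlations of same-numbered deviations were 0.025, 0.117 and -0.087 between IL4 and IFNg in WT, -0.471, -0.29 and -0.064 in KO, 0.267, 0.256 and 0.034 between genotypes with IFNg, and 0.047, -0.129 and 0.086 with IL4, so no pair of groups had all 3 over 0.1). Between genotypes with IFNg, different numbers gave -0.271 to 0.088. Deviations from a mean of 3 libraries cannot exclude pairing.

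The members and gene lists were chosen with earlier results of these data known. Genes were named by rule: the 12 largest differences in each direction with a mean of at least 100 and no overlap, 15 preset markers (1 more is not reported here), list members with the smallest p, the 5 largest differences of mean value, the 3 largest long non-coding RNAs and the 6 largest genotype differences. Other list members named were chosen after their values were seen. No 2 libraries of a group agreed within sampling noise (chi-square per degree of freedom from 3.14 to 10.8 over 6 pairs). Counting error is the only error that depth covers here, as no molecular identifiers are described.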

Additional observations from a re-analysis of the deposited data

Results flagged for a closer look

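The difference between IL4 and IFNg was itself tested between genotypes, KO minus WT on the log2 scale, for the preset markers and for the 6 largest values of each sign. It passed an adjusted p of 0.05 (limma, Benjamini-Hochberg over 18637 genes) for 19 of these genes, beside 5.23% of all genes tested. The 6 of each sign were picked from genes that had passed, so their passing was fixed in advance. Of the 15 preset markers, Retnla, Mrc1, Egr2, Cxcl9, Gbp2, Irf1, Nos2, Cd274 and Iigp1 passed. Among genes higher with IFNg the value was above 0, a smaller difference in KO, for Gbp4 (3.35), Clic5 (3.03), Olfr56 (2.9), Ly6a (2.9), Iigp1 (2.81), Cxcl9 (2.34), Gbp2 (1.6), Nos2 (1.59), Irf1 (0.725) and Cd274 (0.545). For Gvin1 the value of 3.32 is the WT difference alone, since no KO library of these groups held a read. Among genes higher with IL4 in WT it was below 0 for Retnla (-3.29), Rnase2a (-2.5), Myc (-2.04), Prcp (-2.02), Shisa9 (-1.85), Mrc1 (-0.838) and Egr2 (-0.762). Prcp lay on opposite sides in the genotypes. Arnt2 had a larger difference toward IFNg in KO (-2.11). Groups of 3 libraries are too small for a search for single outlying samples.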

How the results depend on the processing

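With equal library totals 7294 genes in WT were higher with IL4 and 2485 with IFNg, 3416 were at least 2-fold higher with IL4, and in KO 7213 and 2192 were higher. With median-centred libraries 2337 were higher with IL4 in WT, 1161 of them at least 2-fold, and in KO 2169 with IL4 and 6029 with IFNg. For the difference between genotypes, DESeq2 called 1053 above and 653 below 0, library weights 1426 and 954, the groups compared alone 1030 and 555, and edgeR 601 below 0. Leaving out 1 library gave 3573 to 3692 genes higher with IL4 and 3820 to 3931 with IFNg in WT (1667 to 1750 and 1734 to 1792 at 2-fold), 3588 to 3699 and 3595 to 3709 in KO, and 476 to 647 above and 254 to 352 below 0 between genotypes. The replicate block gave 3986 and 4107 calls in WT, and among the named genes it ended only the call of H2-Aa (adjusted p = 0.062).

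List medians that changed sign with equal library totals were those of IL-4 receptor signalling (0.19), transcription factors (0.22), cytokine receptors (0.32), matrix (0.075), neutrophil markers (0.13), the sex-linked gene (0.38) and mitochondrially encoded genes (0.090). With median centring they were arginine metabolism (-0.13), the tricarboxylic acid cycle (-0.0064), oxidative phosphorylation (-0.029), fatty acid oxidation (-0.14), cholesterol synthesis (-0.17), the unfolded protein response (-0.036), lysosome (-0.14), macrophage identity (-0.083) and B cell markers (-0.11). With edgeR and DESeq2 the median of each list kept its sign. Cytokine receptors also changed sign with library weights (0.0083), a filter at 10 (0.24) and single libraries left out (-0.101 to 0.159), and the sex-linked gene with a library left out (-0.101 to 0.0087). Gene values that changed sign were, with equal totals, Bst2 (0.23), H2-Aa (0.21) and Stat6 (0.41, and 0.0035 with edgeR, and -0.0415 to 0.0118 with a library left out) and, with median centring, Canx (-0.24), Cd74 (-0.26), Ctsd (-0.080), H2-Eb1 (-0.22) and Irf3 (-0.24). The calls of Adgre1, Csf1r and Csf3r were lost with median centring (adjusted p = 0.91, 0.99 and 0.79). The cause was not tested. Depth limits genes near the 3-read floor.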
